A study of Homo sapiens with 28 samples.

Results

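The mRNAs described here encode RNA-binding proteins, RNA helicases and spliceosome subunits, picked by the start of the gene symbol: HNRNP, RBM, DDX, DHX, SF3A or SF3B, SNRPA to SNRPG, PRPF and U2AF. The authors' deposited table of RNA degradation rate constants held 70 such transcripts among 2568. Of these, 17 were HNRNP genes, 16 RBM, 13 DDX, 6 DHX, 7 SF3, 8 SNRP and 2 PRPF, and U2AF2 was the only U2AF gene. A constant was given for 66 of 2209 transcripts by the TimeLapse chemistry, 62 of 1600 by SLAM and 59 of 2262 by TUC. All 3 chemistries covered 54 of the 70, a pair of them covered 9, and 7 had a constant from 1 chemistry. The symbol rule is blind to function: DDX11, for example, is a DNA helicase of chromosome cohesion and repair.

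The study measured RNA turnover in HEK 293T, an established line from human embryonic kidney, with wild type given as its genotype. Cells received 100 µM 4-thiouridine (s4U) for 2 h, or none in the unlabelled controls, and the incorporated s4U was then recoded so that new RNA reads show T-to-C mismatches. Recoding used NaIO4 with TFEA at pH 5.2 (TimeLapse), iodoacetamide alkylation (SLAM) or OsO4 with NH3 (TUC). Each chemistry was run under drop-out conditions (DO) and under improved handling conditions (IH), with 2 labelled libraries and 1 unlabelled library in each of those settings. The series text gives the aim of improved handling as less loss of labelled RNA and of mismatched reads. The labels do not say whether the labelled duplicates were separate cultures, so the spread behind the authors' p-values may be technical. One cell line was used, and the constants describe RNA turnover in that line only.

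The 18 libraries of these chemistries held 1935777 to 9962345 reads in the HISAT-3N alignment. The share of reads carrying 1 or more T-to-C mismatches was 16.7% to 25% of the labelled DO libraries and 40% to 58.2% of the labelled IH libraries. In unlabelled libraries it was 3.28% to 5.17% under DO and 2.41% to 3.07% under IH, and higher under DO in each chemistry. Reads that named no gene made up 29.8% to 39% of the labelled DO libraries and 15.8% to 23.6% of the labelled IH libraries, and in unlabelled libraries 29.4% to 37.6% under DO and 15% to 17% under IH. Both shares differed between the handlings, as the constants below did, and their part in any single gene's value was not tested. Among 7 markers of HEK 293T, VIM, KRT18, NEFL and NEFM had a row in the authors' deposited table, and KRT8, INA and LIN28B had none. None of 8 markers of blood, liver, fibroblast or endothelial cells had a row. A missing row is not a measured zero.

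Heterogeneous nuclear ribonucleoproteins (hnRNPs) coat nascent transcripts and steer splicing, export and stability, and RBM proteins carry RNA recognition motifs or related domains, many of them in splicing regulation. DEAD-box (DDX) and DEAH-box (DHX) helicases remodel RNA and RNA-protein complexes in splicing, ribosome assembly and decay. SNRP genes encode the Sm ring and the U1 and U2 proteins of the spliceosomal snRNPs, SF3A and SF3B form the U2 snRNP part that holds the branch site, U2AF2 binds the polypyrimidine tract, and PRPF proteins act in the tri-snRNP and in activation. Several such genes hold splice events, in ultraconserved stretches, that feed their transcripts to nonsense-mediated decay. A degradation rate constant is the exponential rate at which an RNA is lost, so a high constant means a short-lived RNA. All constants, log2 changes and adjusted p-values below, by gene, come from the authors' deposited table, which states no time unit and no error. Values in threes are in the order TimeLapse, SLAM and TUC.

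Promoter windows are given for 4 genes, picked after their values were seen: HNRNPA3, HNRNPA0 and the adjacent pair RBM6 and RBM5. HNRNPA3 had a higher constant under IH at an authors' adjusted p under 0.05 in each chemistry, and HNRNPA0 in none. These 4 genes are examples and do not cover the full range of changes, which reached further up in HNRNPA1 and further down in SF3B4. The windows show annotated starts only, and nothing in the data measures the promoters or which start was used in these cells. Each line gives 100 bases before and 30 after the annotated start on the gene's own strand, from RefSeq (GRCh38.p14). Capitals mark a match, on either strand, to the GC box GGGCGG, the CCAAT box, the TATA box TATAAA or the ETS-type motif CCGGAAG. On the opposite strand the GC box reads CCGCCC, and the CCAAT box reads ATTGG. The windows lie at chr2:177212694-177212823 (plus strand), chr5:137754334-137754463 (minus strand), chr3:49940050-49940179 (plus strand) and chr3:50088819-50088948 (plus strand).
HNRNPA3: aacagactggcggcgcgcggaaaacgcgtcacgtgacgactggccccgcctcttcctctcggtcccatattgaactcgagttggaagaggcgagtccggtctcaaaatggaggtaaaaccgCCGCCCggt
HNRNPA0: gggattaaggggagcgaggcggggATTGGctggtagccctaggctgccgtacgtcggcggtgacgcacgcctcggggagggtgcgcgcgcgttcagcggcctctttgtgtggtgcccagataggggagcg
RBM6: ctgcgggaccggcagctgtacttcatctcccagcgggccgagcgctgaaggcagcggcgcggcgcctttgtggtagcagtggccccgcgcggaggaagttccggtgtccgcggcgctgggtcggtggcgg
RBM5: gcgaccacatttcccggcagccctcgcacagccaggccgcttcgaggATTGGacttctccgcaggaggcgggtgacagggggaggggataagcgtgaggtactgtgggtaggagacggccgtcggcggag
HNRNPA3 had 1 GC box match, in the 30 bases after the annotated start, and no match in the 100 bases before it. HNRNPA0 and RBM5 had 1 CCAAT each, and RBM6 had no match in these letters. Over the full RefSeq windows, from 250 bases before to 50 after the start, 67 members had 87 windows. Of these 63.2% held GGGCGG, against 72% of the windows of genes in the authors' table and 45% of all RefSeq windows. CCAAT was in 48.3%, against 35.8% and 34.6%, and CCGGAAG in 32.2%, against 19.1% and 10.3%. TATAAA was in 8.05%, against 5.08% and 11.5%. The median GC content of the members' windows was 63%, against 66.3% and 58.7%. Windows were found for 2054 of the 2568 transcripts in the authors' table, so the table's shares cover those genes only.

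Under both handlings the members' transcripts had higher median constants than the whole table. In the authors' deposited table the members' median IH constant was 0.130 by TimeLapse, against 0.102 over all transcripts. By SLAM it was 0.105 against 0.0833, and by TUC 0.138 against 0.0998, so the members' median was 1.28, 1.26 and 1.38 times that of the table. The DO medians were 0.0502, 0.0445 and 0.0457, against 0.0430, 0.0354 and 0.0411. Above the table's median IH constant lay 45 of 66 members by TimeLapse, 45 of 62 by SLAM and 38 of 59 by TUC. The members also lay closer together than transcripts at large: the SD over transcripts of the log2 IH constants was 0.77, 0.82 and 0.85, against 1.09, 1.13 and 1.05. These are differences between lists, with no test of the lists.

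Most members had a higher constant under improved handling, as most transcripts did. By TimeLapse 47 of 66 members (71.2%) rose at an authors' adjusted p under 0.05, against 52.6% of all transcripts. By SLAM 37 of 62 (59.7%) rose, against 48.9%, and by TUC 40 of 59 (67.8%), against 48.1%. No member was called lower under IH in any chemistry. Only 0.679%, 1.44% and 0.442% of all transcripts were, so the members were near the background. The median log2 change of the members, IH over DO, was 1.39, 1.27 and 1.36, against 1.18, 1.14 and 1.19 over the table. Of the 54 members with constants from all 3 chemistries, 28 (51.9%) rose in each, against 36.2% of 1471 transcripts. A further 7 were called higher in 2 chemistries, 10 in 1 and 9 in none. Of the 54, 51 had a positive log2 change in all 3 chemistries, and 3 had a negative one in at least 1. Throughout, "rose" means called higher under IH at this threshold.

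**Figure D1:**
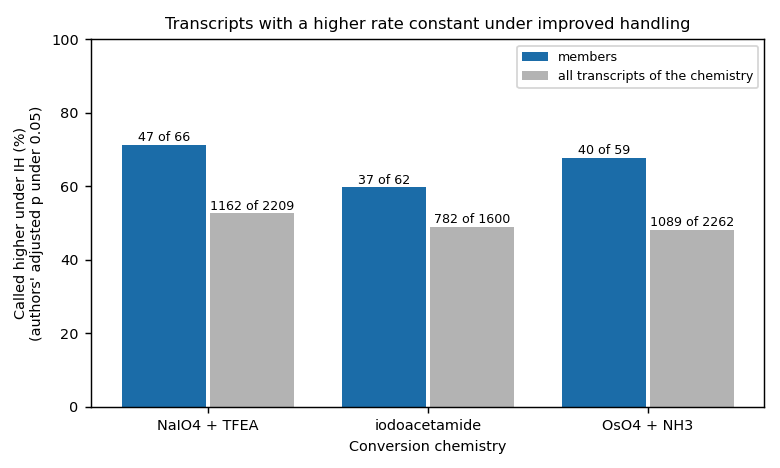
Bars give the percent of transcripts whose rate constant was higher under improved handling at an authors' adjusted p under 0.05, by chemistry, for the members (blue) and all transcripts (grey), with the counts above. The members' bars stand at 71.2%, 59.7% and 67.8% and the grey bars at 52.6%, 48.9% and 48.1%.

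In the counts by subgroup that follow, the shares of all transcripts to read them against are the same 52.6%, 48.9% and 48.1%. The hnRNP mRNAs had the widest range of log2 changes of the subgroups in each chemistry. Their median IH constant was 1.05, 1.16 and 1.34 times that of the table in TimeLapse, SLAM and TUC, and 12 of 17, 11 of 17 and 12 of 16 rose. Among themselves they were spread widely under drop-out handling and narrowly under improved handling: the SD over genes of the log2 constants was 0.97, 1.26 and 1.03 under DO and 0.53, 0.50 and 0.60 under IH. The matching SDs over all transcripts were 1.37, 1.37 and 1.34 under DO, and those under IH are given above.

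HNRNPA1, an abundant repressor of exon inclusion, showed the largest median change of the members with 3 chemistries. Its DO constants were 0.0155, 0.00805 and 0.0144 in TimeLapse, SLAM and TUC, and its IH constants were 0.105, 0.0968 and 0.129. The log2 changes were 2.79, 3.61 and 3.19, with authors' adjusted p-values of 4.89e-18, 1.21e-19 and 3.23e-13. Ranked among all transcripts, HNRNPA1 moved from the 9.77 percentile under DO to the 58.0 percentile under IH, as medians over chemistries, from among the lowest constants to the middle of the table. RefSeq names 75 pseudogenes after HNRNPA1, the most of any member, and how reads shared with such copies were assigned is not given in the sources used here.

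HNRNPL, which binds CA-rich RNA, had DO constants of 0.0335, 0.0171 and 0.0209 and IH constants of 0.107, 0.105 and 0.136, and its log2 change of 1.71, 2.66 and 2.76 was called in each chemistry. HNRNPA3, a relative of HNRNPA1 whose promoter is printed above, went from 0.0252, 0.0175 and 0.0326 to 0.129, 0.0840 and 0.146. It too rose in each chemistry, and it has 17 named pseudogenes. Both genes were named for a large median log2 change, and in both every IH constant exceeded every DO constant. HNRNPU, the nuclear scaffold protein SAF-A, had the highest median IH constant of the group, at 0.177, 0.148 and 0.221, up from 0.0503, 0.0433 and 0.0569, with authors' adjusted p-values of 4.48e-11, 3.65e-09 and 8.39e-09. HNRNPA2B1, HNRNPC, HNRNPD, HNRNPH1, HNRNPH3 and HNRNPM also rose in all 3 chemistries.

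At the other end, HNRNPA0, HNRNPF and HNRNPUL1 were called in none. HNRNPA0, which binds AU-rich elements, had DO constants of 0.148, 0.116 and 0.118 and IH constants of 0.148, 0.0969 and 0.213. Its log2 changes were 0.02, -0.25 and 0.88, and the last had an authors' adjusted p of 0.08. HNRNPF, a G-tract binding splicing factor, went from 0.161, 0.133 and 0.161 to 0.204, 0.161 and 0.169. HNRNPUL1, a relative of HNRNPU, had log2 changes of 0.25, 0.26 and 0.67. HNRNPK, which binds C-rich RNA, had the lowest median IH constant of the group: 0.0636, 0.0459 and 0.0598, against 0.0447, 0.0326 and 0.0291 under DO. It was called by TUC only, at an authors' adjusted p of 0.0211.

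The RBM mRNAs were among the shorter-lived of the set. Their median IH constant was 1.67, 2.10 and 1.87 times that of the table, and 13 of 14, 13 of 13 and 9 of 11 lay above the table's median. RBM33 had the highest median of those in 3 chemistries, at 0.348, 0.309 and 0.376 under IH and 0.240, 0.149 and 0.145 under DO. Its log2 changes of 0.55, 1.07 and 1.41 were called in SLAM and TUC. RBM20, a regulator of titin splicing, had the highest IH constant of all members in TimeLapse, its only chemistry, at 0.492 against 0.305 under DO, with an authors' adjusted p of 0.109. RBM15B, a partner of the m6A methyltransferase complex, had DO constants of 0.202, 0.185 and 0.184 and IH constants of 0.233, 0.256 and 0.309, and was not called.

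RBM5 and RBM6, both splicing regulators, lie next to each other on chromosome 3 with 11.7 kb between them. RBM5 had DO constants of 0.0573, 0.0880 and 0.104 and IH constants of 0.339, 0.303 and 0.373, a log2 change of 2.62, 1.82 and 1.91 that was called in each chemistry. RBM6 went from 0.0512 to 0.260 in TimeLapse and from 0.0372 to 0.248 in SLAM, with log2 changes of 2.45 and 2.84, both called. Under IH both genes lay above the 90th percentile in every chemistry that gave them. RBM42 had the lowest median IH constant of the group, at 0.0972 by TimeLapse and 0.0588 by TUC, against 0.0593 and 0.0383 under DO, and was not called. RBM10, RBM23, RBM25, RBM28 and RBMX rose in all 3 chemistries. The other pair of members within 200 kb, HNRNPD and HNRNPDL on chromosome 4 with 48.6 kb between them, was less alike. HNRNPD rose in each chemistry, with log2 changes of 1.76, 2.22 and 2.34. HNRNPDL had 1.27, 0.88 and 0.59 and was called in TimeLapse only.

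Helicase mRNAs also had constants above the middle of the table. The median IH constant of the DDX genes was 1.47, 1.49 and 1.42 times that of the table, and that of the DHX genes 2.01, 2.09 and 1.96 times. DDX genes rose in 10 of 12, 8 of 11 and 8 of 10 cases, and DHX genes in 4 of 5, 2 of 4 and 6 of 6. DDX11 had the highest median of the DDX group, at 0.319, 0.314 and 0.248 under IH and 0.0953, 0.0705 and 0.0741 under DO. DHX30, a mitochondrial ribosome assembly factor, had the highest median of the DHX genes with at least 2 chemistries, at 0.224, 0.213 and 0.236, up from 0.0879, 0.0859 and 0.102. Both rose in each chemistry.

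Spliceosomal helicases among the members were grouped after the values were seen, so their counts are a description only. DDX23, DDX42, DDX46, DHX8 and DHX38 gave 5 of 5 calls in TimeLapse, 4 of 4 in SLAM and 4 of 4 in TUC, against 52.6%, 48.9% and 48.1% of all transcripts. EIF4A3, a DEAD-box helicase of the exon junction complex whose symbol is outside the rule, was called in TimeLapse but not in SLAM or TUC, with log2 changes of 0.91, -0.13 and 0.41. DHX38, which acts before the second step of splicing, went from 0.103, 0.0830 and 0.0747 to 0.205, 0.225 and 0.192. DDX42, bound to the U2 snRNP, went from 0.0779, 0.0789 and 0.112 to 0.236, 0.225 and 0.227.

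Helicases of the nucleolus and of ribosome assembly, listed in the same way, were mixed, with 3 of 5, 1 of 5 and 2 of 4 called. DHX30, the mitochondrial ribosome assembly factor above, was left out of this list and rose in each chemistry. DDX27 rose in each chemistry, from 0.0321, 0.0350 and 0.0274 to 0.145, 0.167 and 0.140. DDX56 was not called in any: its DO constants were 0.121, 0.115 and 0.102 and its IH constants 0.120, 0.0931 and 0.143. DDX54 had the lowest median IH constant of the DDX genes, at 0.107, 0.0740 and 0.0574, and was called in TimeLapse only, from a DO constant of 0.0329. DHX37 had the lowest of the DHX genes, at 0.126, 0.135 and 0.140, and was called by TUC only. The difference between the helicase lists was not tested. Other helicase members, among them DDX5, DDX17 and DHX9, were on neither list, so both sets of counts depend on which genes were listed.

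SF3 mRNAs lay near the middle of the table under improved handling, at 0.97, 1.16 and 0.99 times its median, and 4 of 7 (57.1%), 2 of 7 (28.6%) and 2 of 6 (33.3%) rose, against 52.6%, 48.9% and 48.1% of all transcripts. Under DO they lay at 1.49, 1.30 and 1.47 times the table's median. SF3B3, a scaffold of SF3B, rose in each chemistry, from 0.05, 0.0462 and 0.0608 to 0.166, 0.141 and 0.216. SF3B2 rose in each as well, at lower constants, from 0.0269, 0.0321 and 0.0242 to 0.0713, 0.0559 and 0.0594. SF3B4, which contacts the pre-mRNA near the branch site, had log2 changes of -0.09, -0.36 and 0.48, with DO constants of 0.104, 0.123 and 0.0997 and IH constants of 0.0971, 0.0970 and 0.138. SF3A3 had the lowest median IH constant, at 0.0550, 0.0444 and 0.0519, and was not called. SF3B1, which holds the branch helix, went from 0.0773 to 0.0988 in TimeLapse and from 0.0388 to 0.0631 in SLAM, neither called. U2AF2 rose in each chemistry, from 0.0357, 0.0258 and 0.0266 to 0.0882, 0.0984 and 0.0758.

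The snRNP mRNAs had the lowest subgroup medians under improved handling. The SNRP genes had a median IH constant 0.68, 0.54 and 0.54 times that of the table, and 5 of 8, 3 of 7 and 3 of 7 rose. SNRPD2, an Sm ring subunit, had the lowest IH constants of all members, at 0.0289, 0.0254 and 0.0239, and DO constants of 0.0204, 0.0142 and 0.0170. Its log2 changes of 0.63, 0.88 and 0.57 were not called. SNRPC, of the U1 snRNP, went from 0.0126, 0.00940 and 0.0179 to 0.0354, 0.0293 and 0.0442, called in SLAM. SNRPB, another Sm ring subunit, went from 0.0188, 0.0195 and 0.0203 to 0.0414, 0.0439 and 0.0386, called in TimeLapse and SLAM. SNRPA, the U1 stem-loop binder, was the highest of those in 3 chemistries, rising from 0.0636, 0.0441 and 0.0412 to 0.113, 0.106 and 0.117 in each. PRPF19, the ubiquitin ligase of the spliceosome, had IH constants of 0.0847, 0.0565 and 0.0699, against 0.0396, 0.0373 and 0.0375 under DO. PRPF6, a tri-snRNP bridge, had 0.108, 0.0419 and 0.0749, against 0.0351, 0.0391 and 0.0404. Both were called in TimeLapse alone. Where calls differ between chemistries, the difference itself was not tested.

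**Figure D2:**
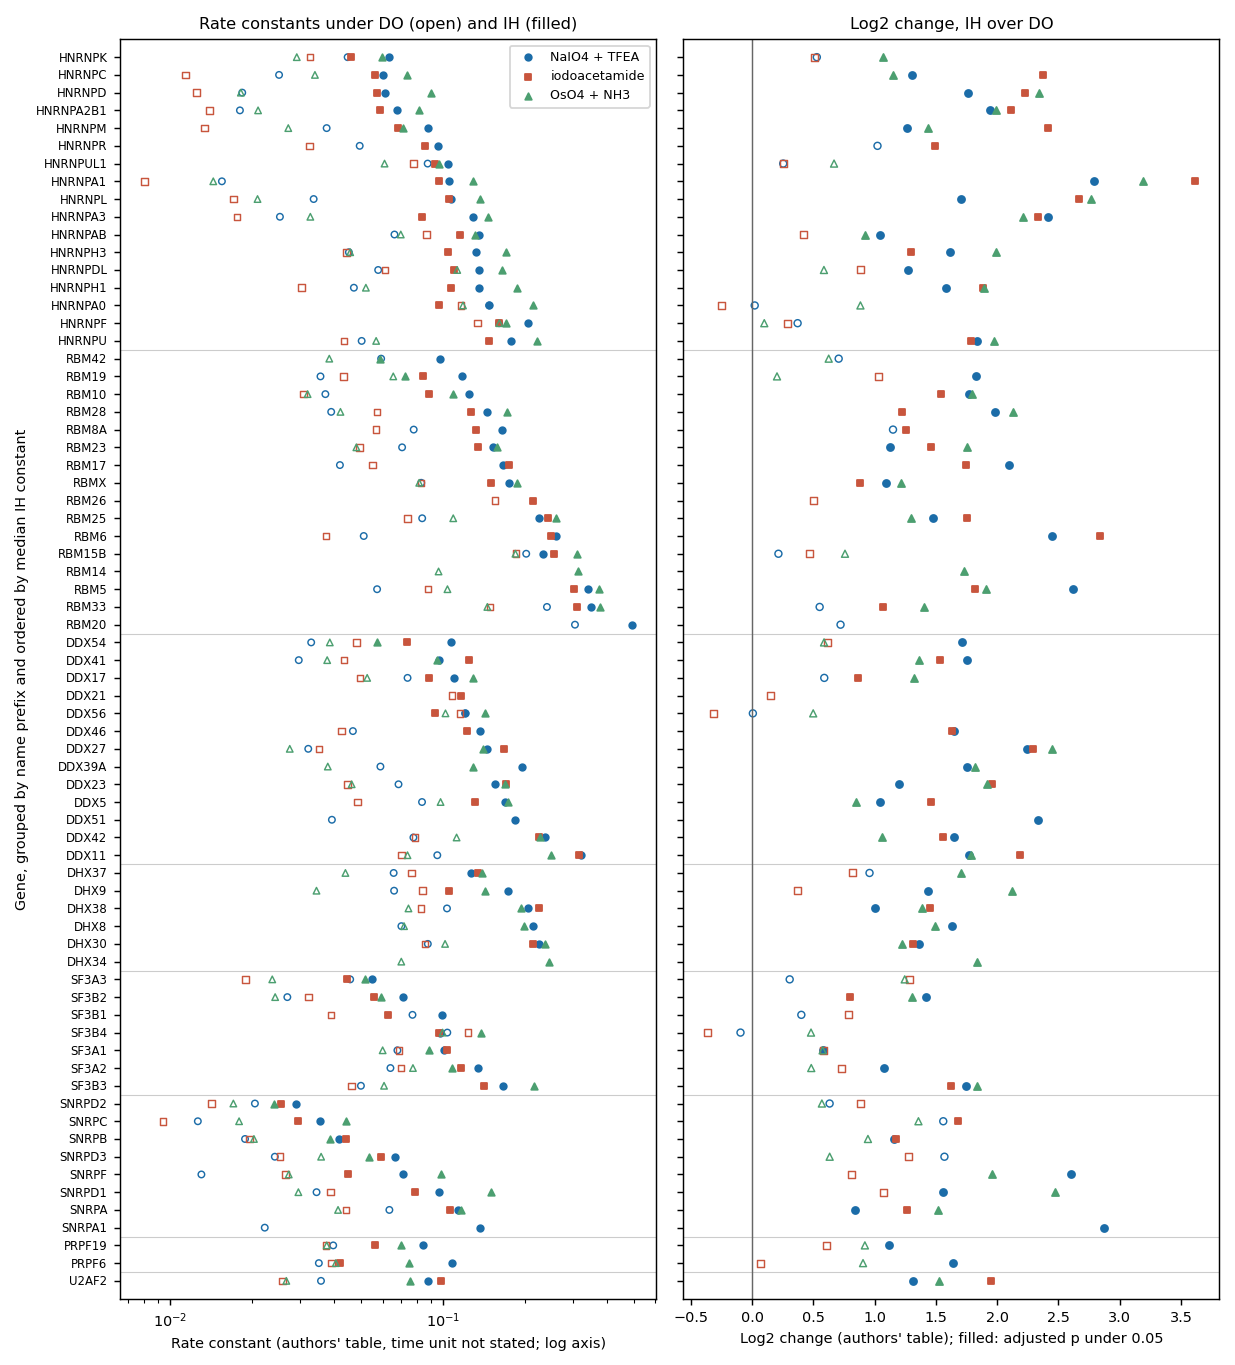
The left panel shows each member's rate constants as deposited (log axis, time unit not stated) under drop-out (open) and improved handling (filled), in 3 chemistries. The right panel shows the log2 change, filled where the authors' adjusted p was under 0.05. RBM and helicase genes reach the highest IH constants, SNRPD2 the lowest, and HNRNPA1 the largest log2 change, 3.61 in SLAM.

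The order of the subgroups was much the same in the 3 chemistries. RBM and DHX genes had the highest medians under IH and SNRP genes the lowest in TimeLapse, SLAM and TUC. For scale, 3 other groups were picked by the start of the symbol alone. SRSF and TRA2 genes, splicing factors (9, 6 and 5 transcripts in the 3 chemistries), lay at 2.39, 1.93 and 2.43 times the table's median under IH. Zinc finger genes (ZNF, 21, 12 and 19 transcripts) lay at 2.50, 3.32 and 2.91 times it. Ribosomal protein genes (RPL or RPS and a digit, 71, 67 and 72 transcripts), long-lived messages, lay at 0.30, 0.29 and 0.35 times it. The SNRP medians thus lay between those of ribosomal protein genes and the table.

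**Figure D3:**
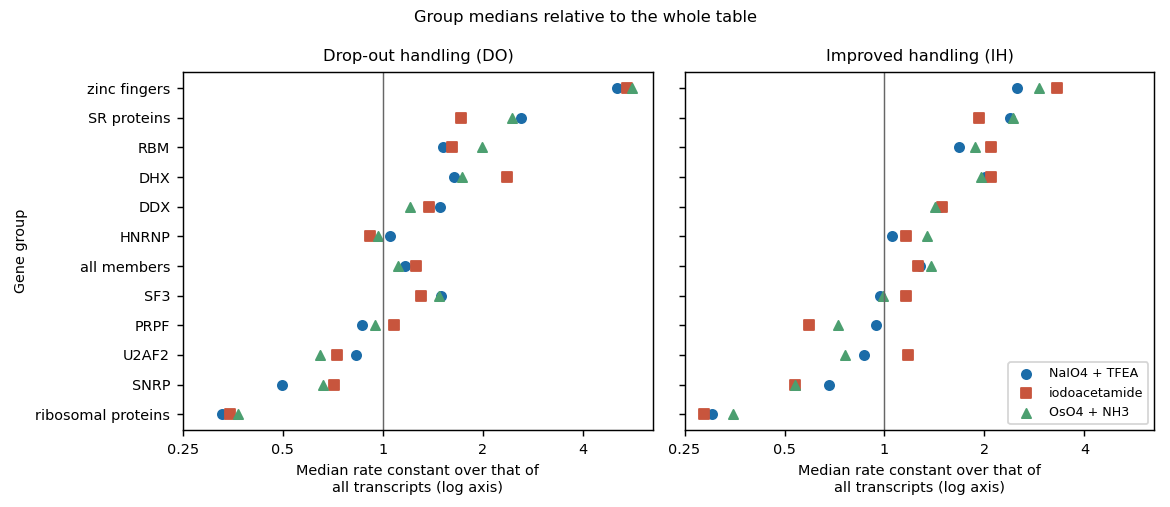
Points give each gene group's median rate constant divided by the median of all transcripts (log axis) for 3 chemistries, under drop-out handling on the left and improved handling on the right. The vertical line marks the whole table. Under improved handling RBM and DHX medians lie between 1.67 and 2.10 and SNRP medians between 0.54 and 0.68.

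Rank agreement between chemistries was closer for the constants than for their changes, in the members as in the whole table. Among the 63 members with at least 2 chemistries, the highest IH constant was a median 1.30 times the lowest, and in 46 (73%) it was under 1.5 times. Over the 2032 transcripts with at least 2 chemistries these were 1.31 times and 72%, so the members were near the background. It was 2 times or more in HNRNPA0, PRPF6 and SNRPF. Across the 54 members in all 3 chemistries, Spearman's rho of the IH constants was 0.907 for TimeLapse and SLAM, 0.917 for TimeLapse and TUC and 0.866 for SLAM and TUC. Under DO it was 0.890, 0.868 and 0.891, and for the log2 changes 0.619, 0.627 and 0.654. Over the 1471 transcripts in all 3 chemistries rho was 0.935, 0.945 and 0.921 under IH, 0.916, 0.915 and 0.898 under DO and 0.702, 0.720 and 0.714 for the changes, each above the members' value. These are across genes, which are not independent replicates.

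Taking the median percentile over chemistries, 15 of the 54 (27.8%) moved up by 10 points or more from DO to IH, 9 (16.7%) moved down by as much and 30 (55.6%) moved less. Over the 1471 transcripts these shares were 23.6%, 27.1% and 49.4%. HNRNPA1 moved up by 48.3 points, HNRNPL by 41.1, HNRNPA3 by 34.4 and DDX27 by 32.1. The percentile of DDX56 dropped by 26 points, and that of HNRNPUL1 dropped by 25.8. SF3B4 dropped by 23.7 and HNRNPK dropped by 22. Within a chemistry, rho between the DO and IH constants of the members was 0.658, 0.669 and 0.737 in TimeLapse, SLAM and TUC, against 0.783, 0.764 and 0.781 over all transcripts.

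**Figure D4:**
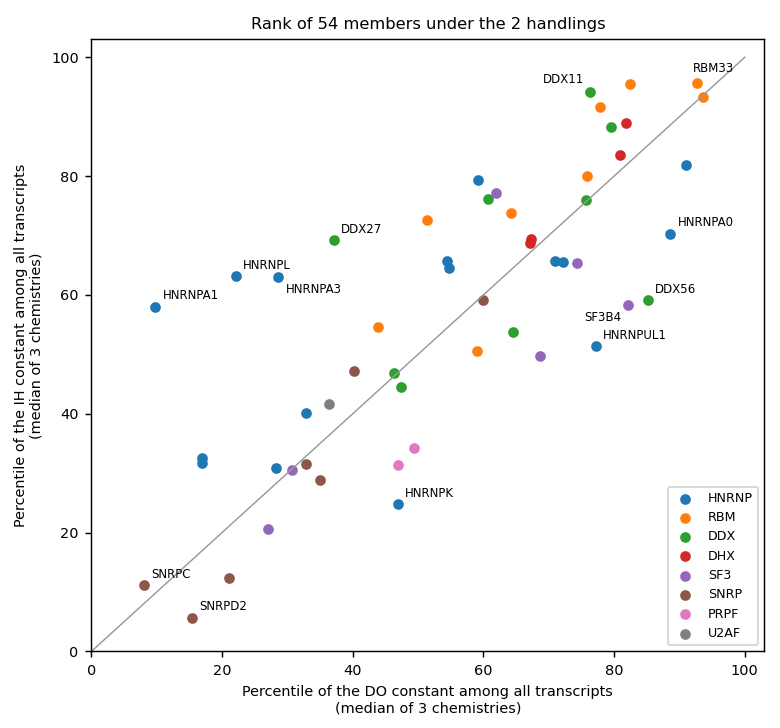
Each point is one of the 54 members with constants from 3 chemistries, placed by its percentile among all transcripts under drop-out (x) and improved handling (y), as medians over chemistries. The line marks equal percentiles. HNRNPA1, HNRNPL, HNRNPA3 and DDX27 lie farthest above it, and DDX56, HNRNPUL1, SF3B4 and HNRNPK farthest below.

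Gene span and named pseudogenes, which the symbol rule did not use, were set beside the changes for the 54 members in all 3 chemistries, with groups chosen after the values were seen. Members outside those 54, such as RBM6 with a span of 137 kb and a median log2 change of 2.64, are not in these groups. Among the 54, those with a gene span under 10 kb (12 genes) had a median log2 change of 0.90, and 3 of them (25%) rose in all 3 chemistries. Those of 10 to 50 kb (36 genes) had 1.45 and 22 (61.1%). The 6 genes of 50 kb or more had 1.19 and 3. Over the 315, 652 and 415 transcripts of the table in all 3 chemistries with such spans, these medians were 0.95, 1.26 and 1.27, and the shares 27%, 38.3% and 43.4%. Of the same 54, those with no pseudogene named after them (30 genes) had a median log2 change of 1.35 and 56.7% rose in all 3, against 1.28 and 45.8% for the 24 with at least 1. Over the 1471 transcripts in all 3 chemistries the same split gave 1.20 and 37.1%, against 1.15 and 33.9%. The 7 members with 5 or more named pseudogenes had 1.31 and 57.1%, near the members with none. The 152 such transcripts of the table had 1.10 and 36.2%.

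Other genes of the same machinery were described from lists of their own. Of 69 other spliceosome proteins listed, 33 were in the table, and 23 of 30 (76.7%), 20 of 23 (87%) and 18 of 25 (72%) rose, against 52.6%, 48.9% and 48.1% of all transcripts. None was called lower, and only 0.679%, 1.44% and 0.442% of all transcripts were. By SLAM, 20 of the 23 had a positive log2 change. SNRNP200, the U5 helicase, was long-lived throughout, with IH constants of 0.0391, 0.0320 and 0.0373 against 0.0103, 0.01 and 0.0123 under DO. SON, a speckle protein, was short-lived, at 0.346, 0.262 and 0.344 under IH. Both rose in each chemistry. Of 60 other RNA-binding proteins listed, 38 were in the table, and 26 of 37 (70.3%), 23 of 35 (65.7%) and 24 of 34 (70.6%) rose, with none called lower, against those same shares. PCBP2, a C-rich RNA binder, had log2 changes between 2.82 and 3.38, and EWSR1 had 2.83, 2.67 and 2.42. Both were called in each chemistry. PABPC1, the cytoplasmic poly(A)-binding protein, had IH constants of 0.0186, 0.0149 and 0.0206 and was not called.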

How the data were processed

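The count table, deposited by the authors, gives counts of reads per library, aligner, contig, gene, intronic flag, T-to-C mismatches and T positions. The submitters' processing notes name cutadapt, HISAT, HISAT2, STAR, Picard, HTSeq, DESeq2 and the build GRCh38, without versions. These counts, in the HISAT-3N alignment, gave only the depth and converted shares, because the table identifies genes by identifiers that were not paired with symbols here. The 6 planned comparisons on reads of the members, by edgeR, were therefore not run. The series has 28 samples, and 10 of them, recoded in other ways, were not used here. Reads that named no gene made up 29.8% to 39% of the labelled DO and 15.8% to 23.6% of the labelled IH libraries.

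The other deposited table holds the authors' rate constants (bakR, per the labels), their log2 change and its adjusted p-value. Its direction, improved over drop-out handling, was found from the constants. In every row the deposited log2 value and the log2 of IH over DO were at most 0.352 apart. Their signs matched in 2197 of 2209 rows for TimeLapse, 1599 of 1600 for SLAM and 2255 of 2262 for TUC. Among members, the signs differed for DDX56 in TimeLapse, whose deposited log2 value was 0.00694. It gives no error, read number or library for any constant, so the members are described by counts, ranges and medians, and "called" means the authors' adjusted p under 0.05. How these p-values were adjusted is not given in the sources used here.

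Members were matched by symbol, and all 70 matched RefSeq (GRCh38.p14), which gave gene spans, promoter windows and pseudogene names. A percentile is the percent of a chemistry's transcripts with a lower constant. Members, lists and rules were chosen with earlier results of these data known. The text names, per name prefix, the members with the highest and lowest median IH constant among those in at least 2 chemistries, and the 4 highest and 4 lowest median log2 changes among those in all 3. Other members named were chosen after their values were seen. Computations used Python 3.11.15 and pandas 2.3.3.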

Additional observations from a re-analysis of the deposited data

How the results depend on the processing

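The counts of members that rose were 47 (TimeLapse), 37 (SLAM) and 40 (TUC). Each other choice takes a subset or a stricter cut of the same calls, so these counts could only stay or shrink. Among transcripts in all 3 chemistries they were 40, 32 and 36, or 74.1%, 59.3% and 66.7%. At an adjusted p under 0.01 they were 41, 28 and 32, or 62.1%, 45.2% and 54.2%. With at least a 2-fold change they were 45, 34 and 38, or 68.2%, 54.8% and 64.4%. All of these lay within 1.5 times of the main counts. Over all transcripts these choices gave 57.5%, 50.2% and 52.3%, then 33.5%, 32.4% and 27%, then 47.9%, 46.1% and 46.5%. Without the members that have a pseudogene named after them, an alternative chosen after seeing the data, the counts were 26 of 38, 22 of 36 and 24 of 34. Fewer members are counted there too by construction, and the shares were 68.4%, 61.1% and 70.6%, against 52.9%, 50.5% and 47.9% of all transcripts without one. No paired analysis was possible because the authors' table gives 1 constant per chemistry and handling, with no library. For the same reason no replicate could be left out. The planned edgeR comparisons of members' reads, with their alternatives, were not run, since gene identifiers were not paired with symbols here. The depth behind a single constant is unknown, so a change that was not called may be one that was not detectable.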
